A study of Mus musculus with 3 samples.

Results

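The kinesins examined were all mouse genes of the deposited gene table whose symbol is Kif followed by a number and any further letter or number. The symbol rule found 37 of 51826 genes, and 35 of them reached a count of 20 in at least 1 library, among 18074 genes that did. These 35 are called measured. Kif2b was at 0 counts in every library and Kif12 had 4 counts in the dE3 library and 0 in the cKO and WT libraries. Kif12 lay furthest above 0 among those left out, and the least counted kinesin that entered was Kif9, with 111, 95 and 108 counts in the dE3, cKO and WT libraries. The 37 were sorted by their known roles into 12 mitotic, 15 transport, 6 cilium and Hedgehog, and 4 other kinesins, of which 11, 15, 6 and 3 were measured.

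RNA came from the spinal cord of mouse embryos at embryonic day 13.5 on a C57BL/6 background, with 1 library for each of 3 genotypes. The dE3 library came from Nestin-Cre;Ctnnb1-floxed(Ex3) embryos, in which loss of exon 3 of the beta-catenin gene is labelled as gain of function. The cKO library came from Nestin-Cre;Ctnnb1-floxed(Ex2-6) embryos, labelled as loss of function. The WT library came from wild-type embryos, for which no Cre is named. Nestin-Cre is generally active in neural progenitors and their descendants. How many embryos each library held is not given in the sources used here.

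Kinesins are motor proteins that use ATP to walk along microtubules or to take them apart at their ends. One set builds the mitotic spindle, aligns chromosomes and helps cut the cell apart, and its RNA is made chiefly by cells close to division. Another set carries vesicles, mitochondria and RNA along the axons of neurons, which no longer divide. At embryonic day 13.5 the spinal cord holds dividing progenitors around the central canal and newly born neurons outside them, so both sets are present in the tissue.

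Promoters are shown because the genes of cell division are known to share short control words near their start sites, among them the cell cycle homology region (CHR, bound by the DREAM complex), the CCAAT box (bound by NF-Y) and E2F sites. The words searched on both strands were TTTGAA for CHR, CCAAT, and for E2F the 4 words TTTCCCGC, TTTCGCGC, TTTGCCGC and TTTGGCGC. No match overlapped another in any kinesin window. RefSeq (GRCm38.p6) windows of 250 bases before to 50 after the start were found for 31 of 37 kinesins. The 250 bases before the start follow for the mitotic and the transport kinesins with the largest and smallest ratio of dE3 to WT among those with such a window, with matches in capitals. Kif14 (chr1:136467598-136467847, plus strand) and Kif18a (chr2:109280488-109280737, plus strand) are the mitotic pair. Kif1c (chr11:70700298-70700547, plus strand) and Kif1a (chr1:93101875-93102124, minus strand) are the transport pair.
Kif14: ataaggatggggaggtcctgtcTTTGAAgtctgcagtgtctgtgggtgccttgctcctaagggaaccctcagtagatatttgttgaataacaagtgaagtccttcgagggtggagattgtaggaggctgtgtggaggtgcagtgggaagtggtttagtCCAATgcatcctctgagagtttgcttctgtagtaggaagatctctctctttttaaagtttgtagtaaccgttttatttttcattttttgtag
Kif18a: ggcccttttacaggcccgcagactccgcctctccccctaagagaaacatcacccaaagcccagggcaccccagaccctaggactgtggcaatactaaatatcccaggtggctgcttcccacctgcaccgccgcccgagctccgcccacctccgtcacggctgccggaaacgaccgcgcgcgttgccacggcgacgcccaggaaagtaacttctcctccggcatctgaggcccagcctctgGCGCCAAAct
Kif1c: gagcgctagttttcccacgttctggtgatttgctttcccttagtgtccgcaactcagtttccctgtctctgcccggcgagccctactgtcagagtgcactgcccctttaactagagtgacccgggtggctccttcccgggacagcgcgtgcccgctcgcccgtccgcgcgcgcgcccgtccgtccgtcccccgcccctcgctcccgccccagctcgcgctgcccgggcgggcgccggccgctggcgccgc
Kif1a: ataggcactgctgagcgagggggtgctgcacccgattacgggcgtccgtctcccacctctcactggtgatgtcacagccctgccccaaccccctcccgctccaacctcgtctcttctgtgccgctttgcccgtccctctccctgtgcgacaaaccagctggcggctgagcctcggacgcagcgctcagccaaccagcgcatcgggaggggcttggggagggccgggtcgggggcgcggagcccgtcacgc
The Kif14 sequence held 1 CHR and 1 CCAAT word, and the Kif18a sequence held 1 E2F word and no CHR word. Neither of the transport sequences held any of the words. The Kif14 window lies within the deposited gene span, which starts upstream at position 136466343 on chromosome 1, so this RefSeq start is not the start of the deposited gene.

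The CHR word was in 9 of 10 promoter windows of measured mitotic kinesins (90.0%), against 1 of 13 windows of transport kinesins (7.69%) and 17.9% of all 32851 mouse windows of the same length. It was also in 19 of 24 windows of the mitotic partner genes described below (79.2%). The window of Kif2b, a mitotic kinesin left out as not measured, held no CHR word. Outside the mitotic group the CHR word occurred in Kif27, with 3 matches, and in Kif26b. The single transport match was in a further Kif1a window that starts inside the gene. The Kif14 window, counted among the 9 with a CHR word, also starts inside its gene. The word lay within 25 bases of the start, a distance chosen after the positions were seen, in 7 of 10 mitotic windows (70.0%), 0 of 13 transport windows, 45.8% of partner windows and 2.65% of all windows, and in Kif26b. CCAAT was in 6 of 10 mitotic windows, 30.8% of transport and 37.4% of all windows, and an E2F word in 2 of 10 mitotic windows, none of the transport windows and 2.26% of all windows. The windows differ in base composition, with a median GC content of 60.2% in mitotic, 69.3% in transport and 52.7% in all windows, and the part of this in the counts of words was not tested. A match is a string of letters and was not shown to be a bound site. Windows of 60 bases before the start show the CHR word close to it, with CCAAT upstream in Kif11 and Kif22 and an E2F word directly before it in Kif15. They are Kif11 (chr19:37376322-37376381, plus strand), Kif15 (chr9:122951021-122951080, plus strand) and Kif22 (chr7:127042421-127042480, minus strand), chosen after the positions were seen, and all words in them read on the opposite strand.
Kif11: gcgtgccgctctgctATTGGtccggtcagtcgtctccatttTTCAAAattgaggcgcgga
Kif15: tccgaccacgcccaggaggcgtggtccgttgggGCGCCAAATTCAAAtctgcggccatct
Kif22: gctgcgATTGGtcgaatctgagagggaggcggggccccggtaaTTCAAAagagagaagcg

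**Figure D1:**
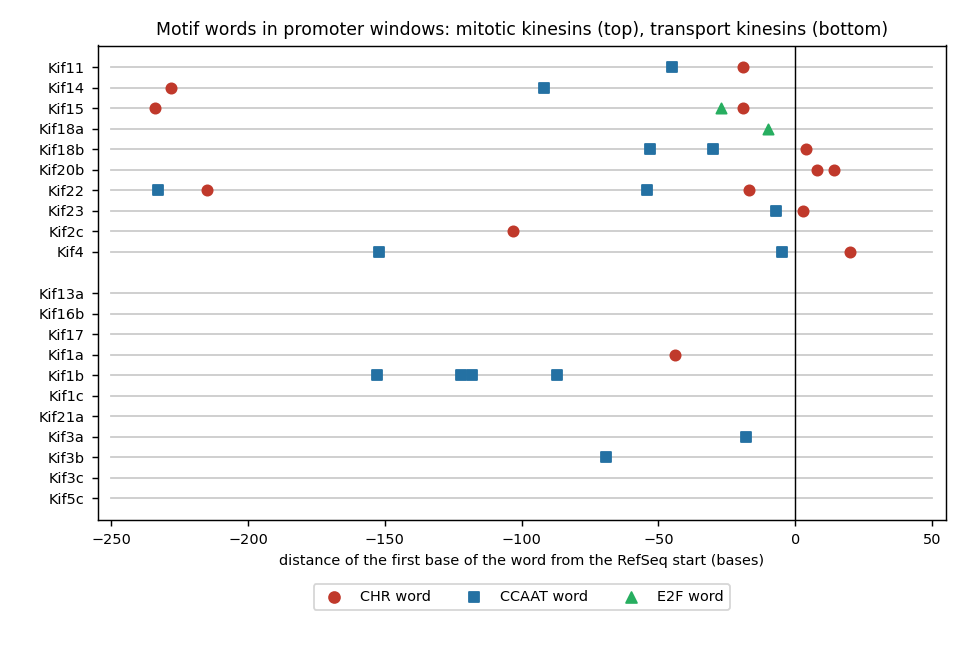
Positions of CHR, CCAAT and E2F words (symbols) in RefSeq promoter windows of mitotic kinesins (upper lines) and transport kinesins (lower lines), with the distance of the word's first base from the start on the x axis in bases. CHR words stand in 9 of 10 windows of measured mitotic kinesins and in 1 of 13 transport windows, and windows of the same gene share a line.

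Gene counts were the authors' estimated counts, scaled for library size with TMM factors and given as CPM. Library totals ran from 32167470 to 34790053 counts. Kinesins took 0.520% of the counts of the dE3 library, 0.595% of the cKO library and 0.582% of the WT library. With 1 library per genotype there was no replicate spread and no test. Each ratio therefore stands with an exact 95% interval from the counts, which covers counting error only and not differences between embryos. The words higher and lower are used of a gene with a ratio of 2-fold or more and an interval that excluded 1, and such a gene is referred to as called. Over all measured genes the log2 ratios had a median of 0.00 in dE3 against WT, 0.00 in cKO against WT and 0.02 in dE3 against cKO. Ctnnb1, the targeted gene, had 461 CPM in the dE3 library, 422 CPM in the cKO library and 544 CPM in the WT library, and these gene totals include exons outside the deleted parts. The cKO library carries another lane tag (L3) in its label than the dE3 and WT libraries (L2), and this cannot be told apart from the genotype.

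Transport kinesins made up most of the kinesin RNA. Per transcript length, in the deposited TPM, they held 82.5% of kinesin RNA in the dE3 library, 86.5% in the cKO library and 86.6% in the WT library. Mitotic kinesins held 8.45%, 4.63% and 4.55% in the same order. In counts the mitotic share was 4.22% in the dE3 library (exact binomial 95% interval 4.13 to 4.32), 2.13% in the cKO library (2.06 to 2.19) and 2.11% in the WT library (2.04 to 2.18). The dE3 interval lay apart from the other two, which overlapped each other.

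**Figure D2:**
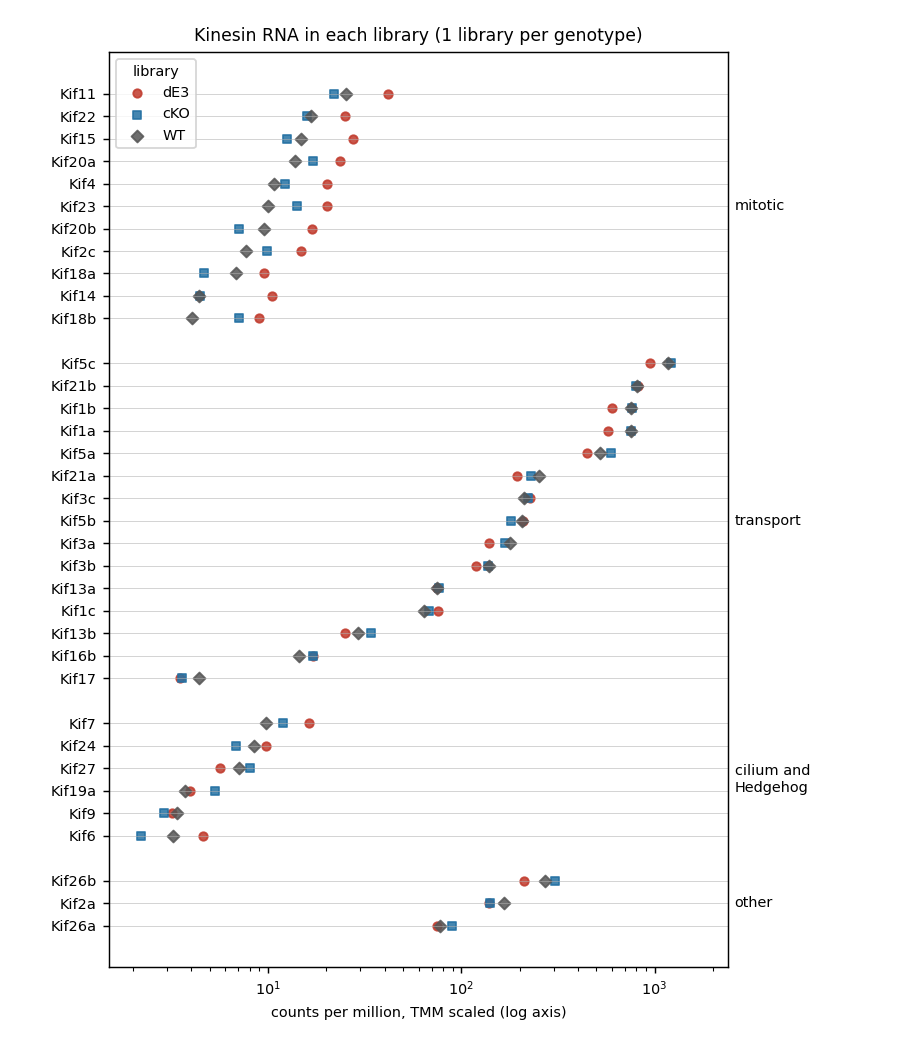
Level of each measured kinesin in CPM (log axis) in the dE3 (circle), cKO (square) and WT (diamond) libraries, 1 library per genotype, grouped by role. All 11 mitotic kinesins have the dE3 point furthest to the right, while the transport kinesins Kif5c, Kif1b, Kif1a and Kif5a have it furthest to the left.

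In the dE3 library the mitotic kinesins stood above WT as a group, and 3 passed the 2-fold rule. Kif14, Kif18b and Kif23 were higher in dE3, none of the 35 kinesins was lower, and the other 32 were not called. In all measured genes 6.52% were called higher and 3.78% lower in this comparison. All 11 mitotic intervals lay above 1, against 29.1% of all measured genes with an interval above 1 and 28.8% with one below. This count depends on the sorting by role, and the lists were chosen with earlier results of these data known. Kif2a, which shares its number with mitotic Kif2b and Kif2c, was placed among the other kinesins. Had it been counted as mitotic, not every mitotic interval would lie above 1. Its ratio of dE3 to WT was 0.838 (0.805 to 0.871). The summed mitotic level was 218 CPM in the dE3 library and 124 CPM in the WT library, a ratio of 1.76 (1.70 to 1.83). In bulk tissue, fewer or more cells of a type and less or more RNA per cell cannot be told apart.

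Kif14, which binds Prc1 and citron kinase at the midbody during cytokinesis, had 367 counts in dE3, 146 in cKO and 140 in WT. Its ratio of dE3 to WT was 2.39 (1.96 to 2.92). Only the dE3 library stood apart for this gene (ENSMUSG00000041498, GRCm38 chr1:136466343-136531511). Kif18b, which shortens astral microtubules at their plus ends, had 314 counts in dE3, 234 in cKO and 128 in WT, and its ratio of dE3 to WT was 2.24 (1.82 to 2.77). Kif23, the motor subunit of the centralspindlin complex that organises the cleavage plane, had 709 counts in dE3, 463 in cKO and 317 in WT, with a ratio of dE3 to WT of 2.04 (1.78 to 2.34). For Kif18b (ENSMUSG00000051378, chr11:102905529-102925124) and Kif23 (ENSMUSG00000032254, chr9:61915905-61946774) the cKO library lay between the others. The lower bounds of all 3 intervals were below 2, and Kif23 was no longer called with housekeeping genes as the scale or by deposited TPM.

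The other 8 mitotic kinesins did not reach 2-fold in dE3 against WT, with ratios of 1.40 to 1.93. Among the motors that separate and hold the spindle poles, Kif11 had 1454 counts in dE3, 723 in cKO and 811 in WT, and its ratio of dE3 to WT was 1.63 (1.5 to 1.78). Kif15, which works beside Kif11 on spindle microtubules, had 957 counts in dE3, 413 in cKO and 473 in WT, a ratio of 1.84 (1.65 to 2.06). By deposited TPM dE3 and WT lay closer for Kif15, at 23.0 in dE3, 13.5 in cKO and 17.5 in WT. In both genes the dE3 library was the high one and the cKO library the low one. The correction for GC content described below took the log2 ratio of cKO to WT from -0.21 to -0.07 in Kif11. In Kif15 it went from -0.24 to -0.10. Kif2c, the centromere depolymerase that frees wrongly attached microtubules, had 519, 326 and 245 counts in dE3, cKO and WT, and a ratio of dE3 to WT of 1.93 (1.66 to 2.26). Kif18a, which damps chromosome movement at kinetochore fibres, had 334, 154 and 217 counts and the lowest mitotic ratio, 1.40 (1.18 to 1.67). Among these 4, all intervals of dE3 against WT lay above 1.

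The chromokinesins Kif4 and Kif22 bind chromosome arms. Kif4 had 704 counts in dE3, 403 in cKO and 341 in WT, a ratio of dE3 to WT of 1.88 (1.65 to 2.15). Kif22 had 873 counts in dE3, 522 in cKO and 534 in WT, a ratio of 1.49 (1.34 to 1.66). Both were highest in dE3. Kif20a, which carries the chromosomal passenger complex to the spindle midzone, had 819, 561 and 441 counts in dE3, cKO and WT, and a ratio of dE3 to WT of 1.69 (1.51 to 1.91). Kif20b, which acts in the last step of cytokinesis, had 590, 233 and 303 counts and a ratio of 1.78 (1.54 to 2.05). At a 1.5-fold threshold 9 of 11 mitotic kinesins were past it in dE3 against WT, all but Kif18a and Kif22, where 11.4% of all measured genes were past it on the higher side and 8.01% on the lower. The median mitotic log2 ratio was 0.88, within a range of 0.49 (Kif18a) to 1.26 (Kif14). Parts of Kif20a (25.2% of its 50-base words) and Kif4 (14.5%) also occur in transcripts of other genes, chiefly Cdc23 and Pdzd11 on the opposite strand. Without stated strand use the counts of Kif20a and Kif4 are less certain.

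**Figure D3:**
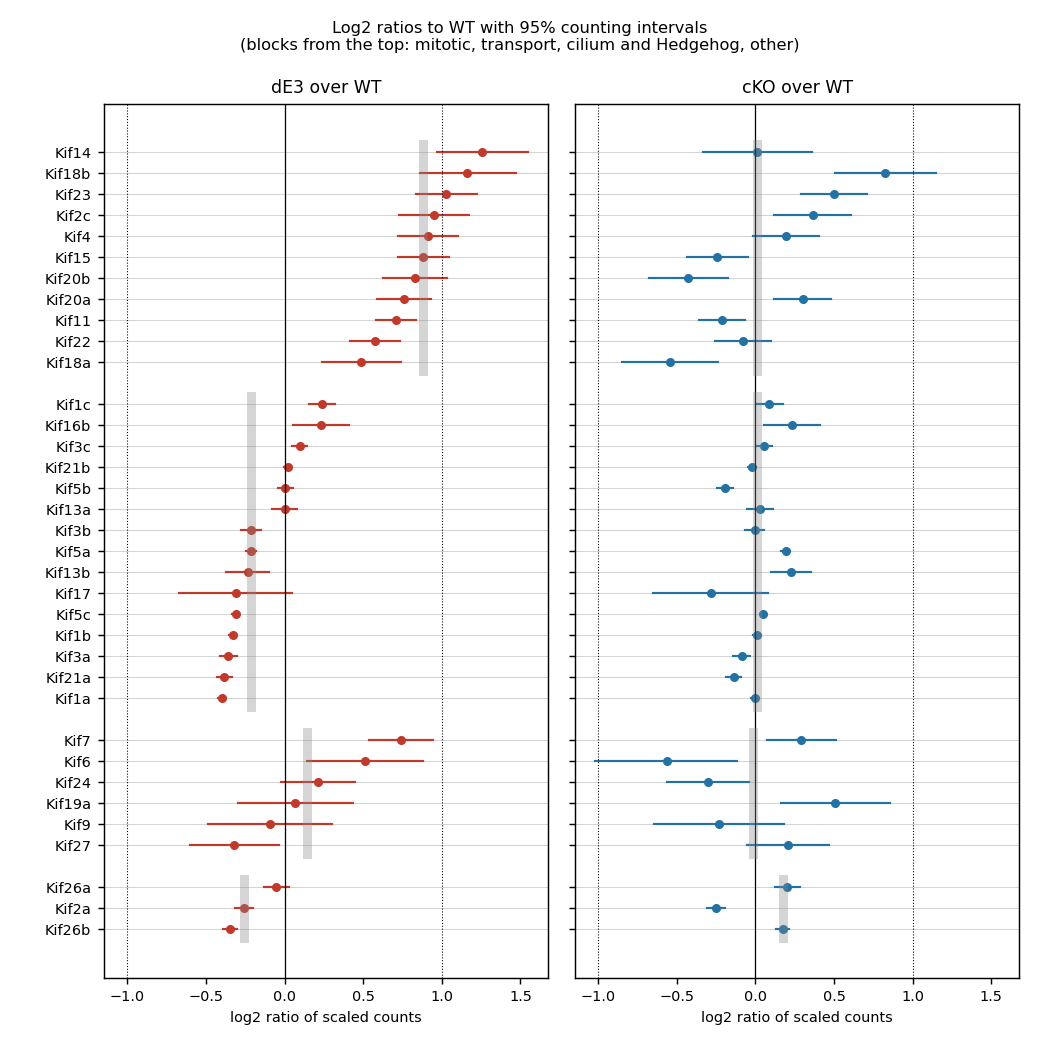
Log2 ratio of scaled counts with its 95% counting interval for each measured kinesin, dE3 over WT (left) and cKO over WT (right), with the median of each role group as a grey bar and dotted lines at 2-fold. The mitotic median is 0.88 in dE3 over WT and 0.01 in cKO over WT, and both panels share the WT library.

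Other genes of division mostly stood on the same side. A list of 25 mitotic partners (kinases, checkpoint and cytokinesis proteins and cyclins) had a median log2 ratio of 0.77 in dE3 against WT. In it 4 genes were called higher and none lower, and 23 of 25 intervals lay above 1. Over all measured genes 6.52% were called higher, 3.78% were called lower and 29.1% had an interval above 1. Birc5, a subunit of the chromosomal passenger complex, had 498 counts in dE3, 253 in cKO and 150 in WT, a ratio of dE3 to WT of 3.03 (2.52 to 3.66). Bub1, a kinase of the spindle checkpoint, had 803, 336 and 338 counts in dE3, cKO and WT, a ratio of 2.17 (1.91 to 2.47). Plk1 and Bub1b were the other called partners. Racgap1, which forms centralspindlin with Kif23, was the exception with an interval below 1. It had 119 CPM in dE3, 117 CPM in cKO and 127 CPM in WT, a ratio of dE3 to WT of 0.941 (0.901 to 0.983). Cenpe, a kinetochore kinesin whose symbol falls outside the name rule, had 29.2, 17.3 and 18.5 CPM in the same order, a ratio of 1.58 (1.42 to 1.75). Kifc1, a spindle motor that walks to minus ends, had 13.0, 11.9 and 8.26 CPM and a ratio of 1.57 (1.35 to 1.84). None of 6 kinesins outside the name rule was called in dE3 against WT. Of their intervals 3 lay above 1, 2 below and 1 held 1, against 29.1% above and 28.8% below in all measured genes. Those below 1 were Kifc3 (0.706, 0.645 to 0.771) and Kifc2 (0.907, 0.845 to 0.974), and that of Kifc5b held 1 (1.04, 0.825 to 1.31).

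Markers of other tissues also differed between the libraries. Over all measured genes 6.52% were called higher and 3.78% lower in dE3 against WT, and 3.50% higher in cKO against WT. In dE3 against WT 29.1% of all measured genes had an interval above 1 and 28.8% below. The summed level of 13 skeletal muscle markers was 200 CPM in dE3, 53.2 CPM in cKO and 15.8 CPM in WT, and 13 of 13 were called higher in dE3 against WT and 10 in cKO against WT. Ckm had 28 counts in dE3 and 0 in cKO and WT, and Tnni1 had 248, 37 and 0 counts. For 13 cartilage and vertebra markers the sum was 1070 CPM in dE3, 486 CPM in cKO and 178 CPM in WT, with 13 and 11 called higher. For 13 markers of mesenchyme and meninges it was 1441, 1648 and 751 CPM, with 5 and 4 called higher. Epidermal markers (8) summed to 29.2, 11.6 and 9.67 CPM in dE3, cKO and WT, and 7 were called higher in dE3, while Krt8 was at 0 in WT. Dorsal root ganglion markers (13 measured) summed to 898 CPM in dE3, 1374 CPM in cKO and 1133 CPM in WT, with a median log2 ratio of -0.36 in dE3 against WT and 0.75 in cKO against WT, and endothelial markers (8) to 250, 325 and 221 CPM. As ratios to WT, muscle sums stood at 12.7 in dE3 and 3.36 in cKO, cartilage sums at 6.01 and 2.73, and mesenchymal sums at 1.92 and 2.20. Neural progenitor markers (15) had a median log2 ratio of 0.18 in dE3 against WT, with 10 intervals above 1 and 4 below. Their sum was 2019 CPM in dE3, 1731 CPM in cKO and 1973 CPM in WT. The ratio of this sum to WT was 1.02 (1.01 to 1.03) in dE3 and 0.877 (0.867 to 0.887) in cKO. Hes5 was called higher, at 66.8, 32.2 and 29.1 CPM in dE3, cKO and WT, and Fabp7, Sox1 and Sox3 were called lower, Fabp7 at 146, 358 and 446 CPM. The part of these cell types in the kinesin ratios was not tested.

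In cKO against WT no kinesin was called in either direction, where 3.50% of all measured genes were called higher and 3.41% lower. The mitotic group was split: 4 of 11 intervals lay above 1, 4 below and 3 held 1, against 27.2% above and 26.7% below in all measured genes. Its median log2 ratio was 0.01 (-0.10 with housekeeping genes as the scale) and the ratio of summed levels was 1.02 (0.980 to 1.07). Kif18b, at 7.09 CPM in cKO and 4.01 CPM in WT, had the highest ratio of cKO to WT, 1.77 (1.42 to 2.21), and was the single kinesin past 1.5-fold, where 7.20% of all genes were past it on that side and 6.67% on the lower. Among the mitotic kinesins Kif23 followed with 463 counts in cKO and 317 in WT, 1.41 (1.22 to 1.64). At the other end of the mitotic group was Kif18a, with 4.66 CPM in cKO and 6.79 CPM in WT (0.687, 0.555 to 0.848). Next to it was Kif20b, with 7.06 CPM in cKO and 9.48 CPM in WT (0.744, 0.625 to 0.886). Motors of cytokinesis stood at both ends of this order.

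The mitotic ratios of cKO to WT went with base composition. Across all 18052 measured genes with a known GC content the median log2 ratio of cKO to WT went up with the GC content of the main transcript, at -0.23 in the lowest and 0.14 in the highest of 10 equal bins of GC content. In dE3 against WT the medians of the bins stayed between -0.03 and 0.05. Over the 11 mitotic kinesins, Spearman's rho between GC content and log2 ratio was 0.76 in cKO against WT and 0.38 in dE3 against WT. Over the 25 partners rho in cKO against WT was 0.65, and over the 15 transport kinesins it was 0.03. These are correlations across genes of the same libraries, which are not independent replicates. Kif18a (38.3% GC) and Kif20b (39.4%) had the lowest GC content of the mitotic kinesins and Kif18b (55.2%) the highest. After subtracting the median of genes of like GC content, an alternative chosen after seeing the data, the log2 ratio of cKO to WT was -0.31 for Kif18a, -0.20 for Kif20b, 0.73 for Kif18b and 0.55 for Kif23. The corrected mitotic median was 0.06 in cKO against WT and 0.91 in dE3 against WT. In cKO against WT 6 mitotic log2 ratios lay above 0 and 5 below, both before and after the correction.

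**Figure D4:**
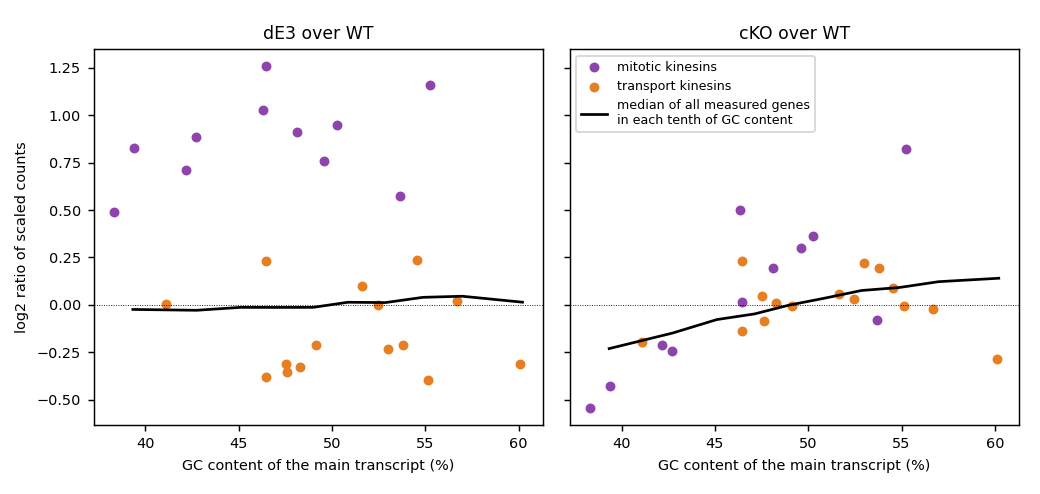
Log2 ratio of scaled counts against GC content of the main transcript (percent) for mitotic and transport kinesins, dE3 over WT (left) and cKO over WT (right), with the median of all measured genes in each of 10 bins of GC content as a line. The line runs from -0.23 to 0.14 in cKO over WT, and the mitotic kinesins are spread along it and beyond, with a Spearman's rho of 0.76 over 11 genes.

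Set against each other, the mutants lay apart in the mitotic group. In dE3 against cKO 5 kinesins were called higher and none lower, where 6.62% of all measured genes were called higher and 4.38% lower. They were Kif14 (2.37, 1.95 to 2.89), Kif20b (2.39, 2.05 to 2.79), Kif15 (2.18, 1.94 to 2.46), Kif18a (2.04, 1.68 to 2.49) and the axonemal kinesin Kif6 (2.11, 1.59 to 2.82). By deposited TPM Kif15 and Kif6 were no longer called. At 1.5-fold 8 mitotic kinesins were past the threshold, where 12.5% of all measured genes were past it on the higher side and 9.53% on the lower. All 11 mitotic intervals lay above 1, against 33.1% of all measured genes, and the median mitotic log2 ratio was 0.72. The interval of Kif2a, placed among the other kinesins, held 1 (0.955 to 1.04). The smallest mitotic ratio of dE3 to cKO was that of Kif18b, 1.26 (1.06 to 1.5), which was among the largest in dE3 against WT. These comparisons share libraries, so their lists are not independent. The GC trend had the opposite sign in dE3 against cKO, with rho of -0.72 over the mitotic kinesins, and after the GC correction Kif18a was no longer called (log2 ratio 0.80).

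None of the 15 transport kinesins was called in any comparison, where 3.41% to 6.62% of all measured genes were called on each side. In dE3 against WT their median log2 ratio was -0.21, with 8 intervals below 1, 3 above and 4 that held 1. In all measured genes 28.8% of intervals lay below 1 and 29.1% above. The summed transport level was 4475 CPM in dE3, 5253 CPM in cKO and 5189 CPM in WT, a ratio of dE3 to WT of 0.862 (0.857 to 0.868). In cKO against WT the transport median was 0.01 (-0.10 with housekeeping genes as the scale), with 6 intervals above 1, 3 below and 6 that held 1. The shares of all measured genes were 27.2% above and 26.7% below. In dE3 against cKO the transport median was -0.21, with 8 intervals below 1 and 3 above. Here 31.0% of all measured genes had an interval below 1 and 33.1% above.

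By TPM in WT the order of levels was led by Kif5c (426), Kif1a (255), Kif21b (221), Kif1b (208), Kif5a (207) and Kif3a (152). Kif5c, a neuronal heavy chain of conventional kinesin (ENSMUSG00000026764, chr2:49619298-49774778), was at 348 TPM in dE3 and 442 TPM in cKO and led in every library. Its scaled level was 944 CPM in dE3, 1211 CPM in cKO and 1171 CPM in WT, a ratio of dE3 to WT of 0.806 (0.795 to 0.818). Its neuronal relative Kif5a had 449, 595 and 521 CPM in dE3, cKO and WT and a ratio of 0.862 (0.844 to 0.881). Kif5b, the heavy chain found in most cell types, had 208, 181 and 207 CPM, with an interval that held 1 in dE3 against WT and a ratio of 0.874 (0.844 to 0.906) in cKO against WT. Thus dE3 lay lowest for both neuronal heavy chains. The lower Kif5b value in cKO, a gene of 41.1% GC, turned with the correction for GC content described above, to a log2 ratio of 0.04 against WT, where it was -0.19 without it.

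Kif1a, which carries synaptic vesicle precursors and dense core vesicles (ENSMUSG00000014602, chr1:93015464-93101951), had the lowest transport ratio in dE3 against WT. It was at 573 CPM in dE3, 752 CPM in cKO and 754 CPM in WT, a ratio of 0.760 (0.745 to 0.774). Kif1b, a carrier of mitochondria and synaptic vesicle precursors, was at 602, 760 and 756 CPM, a ratio of dE3 to WT of 0.797 (0.782 to 0.812). In both genes cKO stood close to WT and dE3 below both. Kif1c, a relative expressed in many tissues, was highest in dE3, with 75.3, 67.9 and 63.8 CPM in dE3, cKO and WT and a ratio of dE3 to WT of 1.18 (1.11 to 1.25). Kif16b, a motor of early endosomes, had 17.0, 17.0 and 14.5 CPM and ratios to WT of 1.17 (1.04 to 1.33) in both mutants.

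Kif3a, Kif3b and Kif3c are the motor subunits of heterotrimeric kinesin, which serves axons and builds cilia. Kif3a had 140, 168 and 179 CPM in dE3, cKO and WT, a ratio of dE3 to WT of 0.781 (0.752 to 0.812). Kif3b had 119, 138 and 138 CPM, a ratio of 0.863 (0.827 to 0.900). Kif3c had 226, 220 and 211 CPM and a ratio of 1.07 (1.04 to 1.11), which the housekeeping scale takes to about 1. Of its 50-base words 39.6% are shared with other genes, chiefly 1110002L01Rik on the opposite strand. The first pair of subunits was lowest in dE3, and Kif3c was not. Kif21a and Kif21b, which pause and steady growing microtubule ends, parted as well. Kif21a had 194, 230 and 253 CPM in dE3, cKO and WT (dE3 to WT 0.767, 0.743 to 0.792), and Kif21b had 824, 800 and 812 CPM (1.01, 0.998 to 1.03). The endosomal motors Kif13a and Kif13b had dE3 to WT ratios of 1.00 (0.946 to 1.06) and 0.850 (0.774 to 0.933), and Kif17, a dendritic and ciliary motor, had 123, 118 and 139 counts and an interval that held 1.

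Genes that work with the transport kinesins lay on the same side in dE3. Over all measured genes 28.8% of intervals lay below 1 and 29.1% above in dE3 against WT. Of these genes 6.52% were called higher and 3.78% lower. The 20 cargo adaptors had a median log2 ratio of -0.23 in dE3 against WT, with 15 intervals below 1, 1 above and none called. Klc1, a light chain of conventional kinesin, had 554, 741 and 653 CPM in dE3, cKO and WT, a ratio of dE3 to WT of 0.848 (0.832 to 0.865). The 16 genes of cytoplasmic dynein, the motor of the opposite direction, had a median of -0.12 with 9 intervals below 1, 4 above and none called. In the 20 pan-neuronal markers the median was -0.36 with 18 intervals below 1, 1 above (Map2) and none called, and the ratio of their summed levels was 0.820 (0.817 to 0.823). The summed level of the transport kinesins had a ratio of 0.862, that of the adaptors 0.848, and whether these lists differed from each other was not tested. In cKO against WT the medians were 0.04 for adaptors, 0.10 for dynein genes and 0.07 for neuronal markers, all of which fall below 0 with housekeeping genes as the scale, a shift of -0.11.

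**Figure D5:**
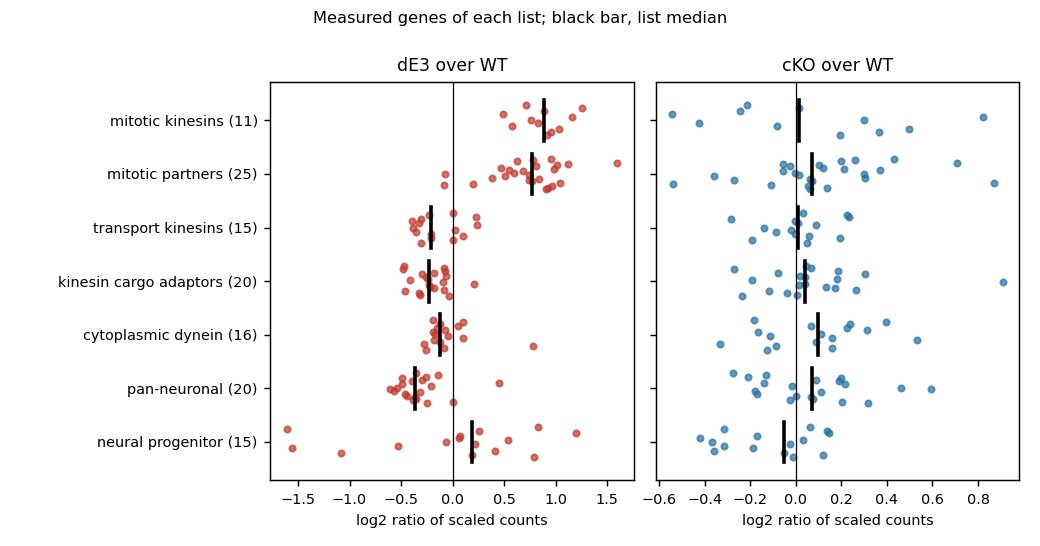
Log2 ratio of scaled counts for each measured gene (points) of 7 lists, with the list median as a black bar, dE3 over WT (left) and cKO over WT (right). In dE3 over WT the medians of mitotic kinesins and partners are 0.88 and 0.77, and those of transport kinesins, adaptors and pan-neuronal markers are -0.21, -0.23 and -0.36.

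Among kinesins of cilia and Hedgehog signalling, Kif7 stood above WT in dE3. Kif7 regulates Gli transcription factors at the tip of the primary cilium. It had 16.2 CPM in dE3, 11.9 CPM in cKO and 9.70 CPM in WT, a ratio of dE3 to WT of 1.67 (1.45 to 1.92). Of its words 16.1% are shared with other genes, chiefly 9330171B17Rik on the opposite strand. In the authors' estimates per transcript Kif7-203 had 161 counts in dE3, 109 in cKO and 15 in WT, and Kif7-204 had 335, 207 and 201. The intervals of Kif7-201 and Kif7-202 in dE3 against WT held 1. The 7 Hedgehog pathway genes had a median log2 ratio of 0.72 in dE3 against WT, within a range of 0.06 to 1.25. Of the 7 intervals 6 lay above 1 and 1 held 1, against 29.1% above 1 in all measured genes. Of the 7 genes 3 were called higher, against 6.52% of all measured genes. They were Gli1, Gli2 and Gli3, and Gli1 had 22.6, 17.2 and 9.51 CPM in dE3, cKO and WT. Kif7 was not called itself.

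Kif6, a motor of motile cilia, had 161 counts in dE3, 72 in cKO and 103 in WT. Its ratio was 1.43 (1.11 to 1.84) in dE3 against WT and 0.676 (0.493 to 0.923) in cKO against WT, so that only dE3 against cKO passed 2-fold. Kif27, a relative of Kif7 needed in motile cilia, had 197, 267 and 224 counts in dE3, cKO and WT, a ratio of dE3 to WT of 0.802 (0.659 to 0.975). Kif19a, which limits the length of motile cilia, had 137, 175 and 119 counts, and its ratio of cKO to WT was 1.42 (1.12 to 1.81). The motile cilium kinesins thus did not share an order of libraries. Kif24, a depolymerase that restrains cilium assembly, had 341, 225 and 268 counts, and Kif9, a motor of cilia and flagella, had dE3 and cKO intervals against WT that held 1. In 15 motile cilium genes the median log2 ratio of dE3 to WT was -0.35, with 2 called lower, Dnah11 and Tekt4. Over all measured genes 3.78% were called lower in that comparison.

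The other measured kinesins were Kif2a, Kif26a and Kif26b. Kif2a, a depolymerase that trims axon branches in postmitotic neurons, had 140, 140 and 167 CPM in dE3, cKO and WT, with ratios to WT of 0.838 (0.805 to 0.871) in dE3 and 0.842 (0.809 to 0.876) in cKO. After the correction for GC content the log2 ratio of this gene of 38.6% GC was -0.02 in cKO, where it was -0.25 without it, and -0.23 in dE3, so that only the dE3 value stayed below WT. Of its words 19.7% are shared with other genes, chiefly Dimt1 on the opposite strand. The atypical kinesin Kif26b had 212, 304 and 269 CPM, a ratio of dE3 to WT of 0.787 (0.762 to 0.811), and Kif26a had 74.9, 89.3 and 77.6 CPM with an interval that held 1 in dE3 against WT.

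Some kinesins differed more in their transcripts than in their totals. In 29 genes 89 transcripts had a count of 20 or more, and in dE3 against WT 10 were called higher and 8 lower, against 14% and 11.4% of all 42822 such transcripts of measured genes. In cKO against WT these were 7 and 9, against 12.1% and 13.3%, and in dE3 against cKO 14 and 7, against 16.2% and 12.3%. In none of these was the share of kinesin transcripts above that of all transcripts, and the examples below were chosen after their values were seen. Apportioning of reads among transcripts is an estimate, and the intervals do not cover its error. Kif1a-210, a coding transcript, had 2135 counts in dE3, 2205 in cKO and 5840 in WT, or 10.6%, 8.88% and 24.2% of the Kif1a counts. It was low in both mutants, while the main transcript Kif1a-204 had 17508, 21274 and 17857 counts. Kif21b-204, annotated as a target of nonsense-mediated decay, made up 45.4% of Kif21b counts in dE3, 31.2% in cKO and 55.9% in WT, with the coding Kif21b-201 taking most of the rest. Kif3a-208, a coding transcript, had 122 counts in dE3, 1217 in cKO and 928 in WT and was low in dE3 alone.

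Among mitotic kinesins, Kif20a-202 had 411 counts in dE3, 198 in cKO and 93 in WT, while Kif20a-201 had 408, 363 and 348. As the reads were apportioned, the difference in Kif20a lay almost wholly in 1 of its 2 transcripts. These are of nearly equal length (3107 and 3146 bases), and the split between them is an estimate. Kif14-203, the coding transcript, had 356, 143 and 90 counts, and the retained-intron transcript Kif14-202 had 7, 1 and 50. The Kif14 ratio of dE3 to WT was thus 3.61 (2.85 to 4.60) for the coding transcript and 2.39 for the gene, and without the coding transcript the log2 ratio of Kif14 was -2.32. Kif18b-201 held nearly all Kif18b counts in every library, so its ratio of dE3 to WT did not depend on apportioning.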

How the data were processed

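Spinal cord RNA was extracted with Trizol and made into 3 libraries with a VAHTS mRNA-seq V2 kit, per the labels' protocols. Bowtie2 2.3.2, CASAVA and the GRCm38.p6 build are listed, with no role, per the submitters' processing notes. Which tool estimated the counts, from which annotation and whether by strand is not given in the sources used here. The authors deposited estimated counts per gene and per transcript as whole numbers, and beside them TPM and FPKM, as the columns are named per the file headers.

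From these, estimated counts were scaled by library size and TMM factors of 1.01 (dE3), 0.999 (cKO) and 0.993 (WT), computed with edgeR 4.0.16 in R 4.3.3 over 18074 genes with a count of 20 or more in at least 1 library. Library sizes were 34790053, 33048837 and 32167470 in the same order. Intervals of ratios are 95% Clopper-Pearson intervals of the binomial share of the 2 counts, given their sum. A gene was called when the ratio was at least 2-fold and the interval excluded 1. With 1 library per genotype no p-value was computed. Alternatives were DESeq2 1.42.0 size factors, total counts, housekeeping genes, deposited TPM, other minimum counts, a 1.5-fold threshold, removal of 1 transcript per gene and, chosen after seeing the data, a correction for GC content.

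GC content and length came from the GENCODE vM21 transcript with the most counts for each gene (18052 of 18074 measured genes). Coordinates of 32 of the 37 kinesins were the same there as in the deposited files. For sequence sharing, all 50-base words of a gene's transcripts were looked up in the transcripts of all other genes on either strand. The gene named is the one that shared the most words. Promoter windows came from RefSeq (GRCm38.p6) and matched 31 of 37 kinesins. Every kinesin with a count of 20 or more could be named. From other lists up to 4 members were named, by level and by call, and others are named as exceptions chosen after their values were seen. Promoters were printed for the mitotic and the transport kinesin with the largest and the smallest ratio of dE3 to WT among those with 100 or more counts in WT. One gene of the Hedgehog list is not reported here. The members and gene lists were chosen with earlier results of these data known.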

Additional observations from a re-analysis of the deposited data

How the results depend on the processing

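At a 1.5-fold threshold 10 kinesins were past it in dE3 against WT, 1 in cKO against WT (Kif18b) and 9 in dE3 against cKO, all higher. By deposited TPM 3 were called in dE3 against cKO, and in dE3 against WT Kif4 took the place of Kif23. Without the transcript of each gene that differed most between the libraries, which removes what differs by construction, the mitotic median log2 ratio in dE3 against WT was 0.22 over 9 genes, 1 kinesin was called in cKO against WT (Kif6), the called kinesins in dE3 against WT were Kif2c and Kif5a (higher) and Kif14 (lower), those in dE3 against cKO were Kif20b, Kif24, Kif2c, Kif5a and Kif9, Kif14 reversed to -2.32 in dE3 against WT and Kif6 to -0.82 in dE3 against cKO. Scaling by 15 housekeeping genes moved log2 ratios to WT by -0.10 in dE3 and by -0.11 in cKO. The transport median was then -0.32 in dE3 against WT and -0.10 in cKO against WT, the mitotic median in cKO against WT was -0.10, and Kif23 was no longer called, leaving 2 kinesins in dE3 against WT. The mitotic share of TPM over mitotic and transport kinesins alone was 9.29% in dE3, 5.08% in cKO and 4.99% in WT. The correction for GC content left 4 of the 5 calls in dE3 against cKO. DESeq2 size factors, total counts and other minimum counts gave the same called kinesins in all 3 comparisons. No paired analysis was possible because each genotype has 1 library, and for the same reason no replicate could be left out. At this depth the lower bounds for Kif14, Kif18b and Kif23 fall below 2-fold.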
